A study of Danio rerio with 16 samples.

Results

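Of the 16 zebrafish testis libraries of the series, 6 are compared here: 3 control pseudo bulk-seq libraries (CP) and 3 control bulk-seq libraries (CB). The members are the counts of single cells captured in droplets and summed over all cells of a library (CP), and the counts of RNA extracted from the remainder of the same cell suspensions (CB). The tables that hold them share 4388 transcript accessions, out of 6847 rows in the pseudo bulk-seq table and 14792 in the bulk-seq table, and these were compared. The suspensions came from AB strain fish of 1.5 years of age that had received the vehicle alone, 0.1% DMSO, for 1 h at 3 and again at 7 weeks post-fertilization. The sample labels put 50 pg/ml before DMSO for the control fish as well without naming TCDD there, and the exposure described in the study was followed. Testes were minced and digested with collagenase for 1.5 h, dead cells were removed, and a portion of about 5000 cells per suspension entered the 10x droplet device, while the rest was lysed for bulk RNA. The TCDD-exposed suspensions (TP and TB, 2 libraries each), exposed to TCDD at 50 pg/ml at the same ages and divided in the same way, are used below only to test whether the difference between the methods was the same in them. Dissociated testes of other control fish of 1 year of age (CD, n = 3) serve as an outside measure of level.

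In droplet scRNA-seq a cell is enclosed with a barcoded bead, polyadenylated mRNA is primed from its tail, and molecules are counted by their identifiers, so that cells that burst, are not captured or hold few transcripts leave no counts. Bulk-seq from the 3′ end counts reads near the same tail, but from the lysate of every cell and of free RNA in the tube. The adult testis of zebrafish holds cysts of germ cells at all stages, spermatogonia, meiotic spermatocytes and spermatids, within Sertoli cells, while Leydig cells, vessels, smooth muscle and immune cells lie between them. Both methods count 1 end of a transcript, so a level here is a count and not a length-corrected amount, and levels were compared between methods for the same gene and not between genes.

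CP and CB differ in more than droplets. Bulk-seq reads were single-end reads of 50 bases, aligned to GRCz11 on the BlueBee platform, while scRNA-seq reads were processed with Cell Ranger on a reference that the study calls dR10 and the labels GRCz11, and cells with at least 500 features were kept. How doublets were treated is not given in the sources used here. Chemistry, sequencer, aligner, annotation and loss of cells cannot be told apart in this comparison, and fewer cells of a type and less RNA per cell cannot be told apart in a sum over cells. The pseudo bulk-seq table lists no row with fewer than 30 counts in any CP or TP library, and nothing of the kind was asked of CB, so that a gene of low level in CB could enter the comparison only with a higher level in CP. Library totals were 3490409, 9987998 and 6136087 counts in CP, against 17638247, 36172885 and 22015322 counts in CB, and the shared rows held 79.8 to 82.9% of these counts in CP and 68.4 to 70.29% in CB. Levels are given in CPM, counts relative to a total of 1e+06 over the shared rows on the TMM scale, unless another total is named. The CB columns carry names that do not tie them to single bulk-seq samples, so that replicate numbers of CB only name a library and pair nothing. The study describes separate exposure experiments run one after another, but the sources used here do not say which library came from which of them or how many fish a suspension held, so an experiment could not be entered as a block, and p-values measure the spread between these samples.

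Within each method the libraries were close to each other, and between the methods they were not. Spearman correlations across the 4388 genes were 0.937 to 0.972 between CP libraries and 0.954 to 0.984 between CB libraries, against 0.587 to 0.670 between a CP and a CB library. The median size of the log2 ratio of a gene, with 0.5 CPM added, was 0.251 between 2 CP libraries and 0.351 between 2 CB libraries, against 0.888 between a CP and a CB library. By edgeR's quasi-likelihood test, 2777 of 4388 rows (63.3%) differed at an adjusted p under 0.05. Of these, 1264 (28.8% of the rows) were higher and 1513 (34.5%) were lower in CP. With at least a 2-fold difference as well, 43.0% of the rows were called, 830 rows (18.9%) higher and 1056 rows (24.1%) lower in CP. The values of the 3 CP libraries lay all above those of the 3 CB libraries for 1410 rows (32.1%) and all below them for 1638 rows (37.3%). The median log2 fold change was −0.07, and the 5th and 95th percentiles were −2.54 and 2.36. The split between directions depends on the scaling. With whole-table totals in place of TMM, 1619 rows were higher and 1179 lower in CP, a share of 57.9% of calls against 45.5%, with a shift of the median by 0.29. Directions of gene groups are therefore read below against the median of all rows. Counts of called genes in a group are read against the shares over all rows, 28.8% higher and 34.5% lower.

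h2az2b, which encodes an H2A.Z histone variant, had 5499, 4572 and 5755 CPM in CP libraries, against 2.62, 2.27 and 5.25 CPM in CB libraries, a log2 fold change of 10.62 (standard error 0.406, edgeR adjusted p = 1.02e-06). lsm5, a subunit of the LSM ring that binds U6 snRNA, had 1612, 1373 and 1582 CPM in CP libraries, against 14.1, 18.5 and 16.5 CPM in CB libraries (log2 fold change 6.54, standard error 0.227, edgeR adjusted p = 7.97e-07). The non-coding transcript zgc:158463 had 54218, 38791 and 56228 CPM in CP libraries, against 79.5, 76.5 and 46.7 CPM in CB libraries (log2 fold change 9.52, standard error 0.313, edgeR adjusted p = 7.97e-07), and was the row with the most counts in CP. The groups did not overlap for any of these genes. Rows of very low level in CB, such as h2az2b, could be listed only with at least 30 counts in each CP and TP library. This need largely fixed their direction. Among the 10 rows with the largest differences upwards and at least 3 counts in each of the 6 libraries were also rrm2l, cops3, pigf, hint2, poc1a and znhit1, with log2 fold changes of 6.20 to 7.43. Of these, pigf was at 7.73 without CB replicate 3 and at 8.25 with all libraries thinned to the smallest total. rrm2l encodes a small subunit of ribonucleotide reductase, which makes deoxyribonucleotides, cops3 a subunit of the COP9 signalosome, pigf an enzyme of GPI anchor synthesis and poc1a a protein of centrioles.

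In the other direction, h3f3a, 1 of several genes for the replication-independent histone H3.3, had 10.7, 19.2 and 17.5 CPM in CP libraries, against 862, 1144 and 1161 CPM in CB libraries (log2 fold change −6.03, standard error 0.297, edgeR adjusted p = 1.91e-06). taf11, a subunit of the TFIID complex that binds promoters, had 10.7, 5.81 and 6.70 CPM in CP libraries, against 386, 337 and 499 CPM in CB libraries (log2 fold change −5.78, standard error 0.311, edgeR adjusted p = 2.61e-06). For both genes the groups lay far apart. Also among the 10 rows with the largest differences downwards were the cold-inducible RNA-binding protein gene cirbpb, the chromatin remodeller gene atrx, the muscle actin gene actc1b, lsm14ab, si:dkey-276j7.1, csnk2b and zgc:103482, with log2 fold changes of −6.53 to −5.45. Of these, cirbpb was at −7.005 without CP replicate 2. For zgc:103482 and csnk2b the pseudo bulk-seq table holds a second accession, and when counts were added over accessions of a gene the log2 fold changes were −2.24 and −3.82. A row needed at least 30 counts in each CP and TP library, so genes of still lower level in CP could not enter this ranking. In CP replicate 1, h3f3a and taf11 were near this minimum.

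**Figure D1:**
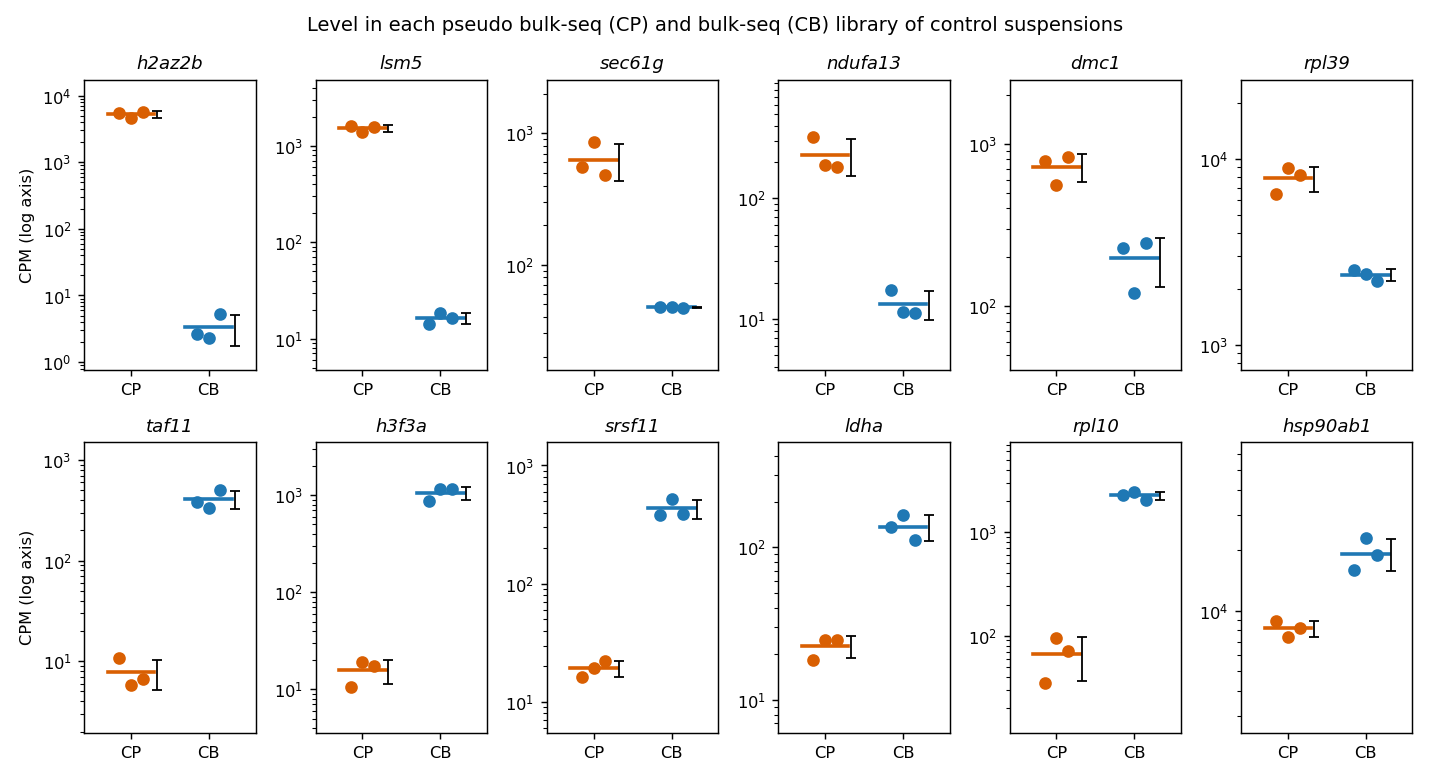
Level of 12 genes in each library, in CPM on a log axis whose range differs between panels, with CP to the left of CB, where points are libraries, horizontal lines means and error bars the SD (n = 3 each). For all 12 genes the 3 CP libraries lie apart from the 3 CB libraries, on the higher side in the upper row and on the lower side in the lower row, while libraries of 1 method lie close together.

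For 12 of the 4388 rows no read was found in any CB library. The one with the most counts was h2az2a, a close paralog of h2az2b, with 3910, 9598 and 7317 counts in the CP libraries. Against a floor of 3 counts over the 3 CB libraries (0.0583 CPM), h2az2a was at least 21690-fold higher in CP. The others with most counts were zgc:162025 with 713, 3003 and 1414 counts in CP, the mitochondrial cyclophilin gene ppifb with 911, 1898 and 1284, the nucleic acid-binding protein gene purba with 339, 1306 and 680 and ppt2a.1 with 319, 379 and 310. The remaining 7 rows had 201 to 832 counts in all over the CP libraries. Rows without a CB read could be listed only with at least 30 counts in each CP and TP library. The direction of all 12 was fixed by this need, and their values are a description. The levels of h2az2a and h2az2b are uncertain as levels of single genes, since nearly identical paralogs can share 3′ reads, and the same holds for the H3.3 genes h3f3a and h3f3d. In the histone group as a whole, 6 of 13 genes were called higher and 3 lower in CP, beside 28.8% and 34.5% of all rows. Among the H3.3 genes, h3f3d had 1784, 1334 and 1488 CPM in CP libraries, against 2807, 2728 and 3252 CPM in CB libraries (log2 fold change −0.93, standard error 0.164, edgeR adjusted p = 0.00106). The linker histone gene histh1l1 (log2 fold change 3.61, standard error 0.263, edgeR adjusted p = 9.47e-06) and the DNA damage variant h2ax (log2 fold change 2.86, standard error 0.227, edgeR adjusted p = 1.32e-05) were higher in CP.

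Ribosomal proteins are, with few exceptions, present as single copies in each ribosome, and their genes did not move together. Of 44 genes of the large subunit, 16 were called higher and 13 lower in CP (median log2 fold change 0.18), and of 32 genes of the small subunit, 18 were called higher and 7 lower (median 0.50), beside 28.8% and 34.5% of all rows and a median of −0.07. Without CP replicate 2, 13 genes of the large subunit were called higher and 15 lower (median 0.07). For the large subunit the spread of the median between replicates, an SD of 0.21, was larger than the median. Within the large subunit the log2 fold changes ran from −5.06 to 2.62. rpl10, which lies next to the tRNA sites of the ribosome, had 34.6, 94.95 and 71.7 CPM in CP libraries, against 2286, 2444 and 2042 CPM in CB libraries (log2 fold change −5.06, standard error 0.367, edgeR adjusted p = 9.31e-06). rpl10a had 118, 94.5 and 117 CPM in CP libraries, against 3302, 3298 and 3295 CPM in CB libraries (log2 fold change −4.91, standard error 0.179, edgeR adjusted p = 7.97e-07). At the other end, rpl39, which encodes a very small protein of the exit tunnel, had 6501, 8885 and 8198 CPM in CP libraries, against 2519, 2418 and 2192 CPM in CB libraries (log2 fold change 1.73, standard error 0.156, edgeR adjusted p = 2.47e-05), and rpl27a had 3219.8, 3179.8 and 2889.8 CPM in CP libraries, against 552, 494 and 463 CPM in CB libraries (log2 fold change 2.62, standard error 0.156, edgeR adjusted p = 3.46e-06). Among small subunit genes, rps26 (1.53) and rps7 (1.35) had log2 fold changes above the median of all rows, and rps18 (−1.39), rps12 (−1.34) and rps27.2 (−1.03) below it. Of the 76 genes, 22 were not called. Among them, rplp1 had 8819, 11203 and 9836 CPM in CP libraries, against 7590.3, 9502 and 7061 CPM in CB libraries, and rpl37 had 8878, 9363 and 10018 CPM in CP libraries, against 7719.9, 8471 and 8146 CPM in CB libraries (edgeR adjusted p = 0.111 and 0.132). With whole-table totals rplp1 and rpl37 were called higher in CP (log2 fold changes 0.60 and 0.50). Counts of all 76 genes together were 24.8, 32.2 and 28.2% of the counts of shared rows in CP, against 23.8, 24.99 and 22.4% in CB, and CP replicate 1 lay below CB replicate 2. CP was above CB at each replicate number, but the CB numbers are not known to mark the suspension that CP was taken from.

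Oxidative phosphorylation, in which electrons pass through complexes I to IV to oxygen and complex V makes ATP, had more genes called higher than lower in CP. Of 69 nuclear genes of the 5 complexes, 35 were called higher and 9 lower, with a median log2 fold change of 0.57. The shares over all rows were 28.8% and 34.5%, with a median of −0.07. In either direction 63.8% of the 69 were called, near the 63.3% of all rows, so only the split of directions differed. In complex I, the NADH dehydrogenase, 19 of 39 were higher and 5 lower (median 0.43), and in complex IV, cytochrome c oxidase, 11 of 16 were higher and 1 lower (median 0.67). Complex V had only 2 rows (log2 fold changes −0.28 and 1.155) and complex II 4, so the 69 genes speak mainly for the other complexes. ndufa13, a supernumerary subunit of complex I, had 322, 188 and 183 CPM in CP libraries, against 17.4, 11.4 and 11.2 CPM in CB libraries (log2 fold change 4.11, standard error 0.316, edgeR adjusted p = 1.22e-05). uqcrc2a, a core subunit of complex III, had 123, 114 and 90.6 CPM in CP libraries, against 2.54, 5.90 and 7.98 CPM in CB libraries (log2 fold change 4.30, standard error 0.385, edgeR adjusted p = 2.52e-05). A row of such low level in CB could be listed mainly with a higher level in CP, so its direction was largely set. The paralog uqcrc2b was not called (log2 fold change 0.37, edgeR adjusted p = 0.0681). In complex IV, cox7a2l (log2 fold change 2.13), cox5b2 (1.49) and cox8b (1.37) were the furthest above. Other subunits of complex I above CB were ndufa3 (log2 fold change 1.59), ndufb4 (1.45) and ndufs8b (2.01), all called. On the lower side, ndufs7, a subunit with an iron-sulfur cluster, had 793, 623 and 684 CPM in CP libraries, against 1783, 992 and 1796 CPM in CB libraries (log2 fold change −1.12, standard error 0.247, edgeR adjusted p = 0.00376), and ndufb7 and ndufa1 had log2 fold changes of −3.08 and −1.14. Counted over accessions of the gene, the value of ndufb7 was −1.55. For complex II, sdha, the flavoprotein of succinate dehydrogenase, had 37.5, 46.3 and 44.1 CPM in CP libraries, against 215, 240.4 and 194 CPM in CB libraries (log2 fold change −2.34, standard error 0.187, edgeR adjusted p = 1.38e-05).

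The 13 mRNAs of the mitochondrial genome are listed in the pseudo bulk-seq table and were not analysed in CB. They made up 0.254, 0.533 and 0.318% of all counts in the 3 CP libraries, with Wilson 95% intervals of 0.249 to 0.259%, 0.529 to 0.538% and 0.313 to 0.322% that cover counting error only. Mitochondrial ribosomal proteins translate these mRNAs and are encoded in the nucleus. Of 61 of their genes, 24 were called higher and 10 lower (median log2 fold change 0.23), beside 28.8% and 34.5% of all rows. Without CP replicate 3, 15 of these genes were called higher. Without CP replicate 2, 17 were called higher and 11 lower, with a median of 0.08. The spread of the median between replicates, an SD of 0.25, was larger than the median. The widest members were mrps6, with a log2 fold change of 2.92, and mrpl12, with −3.85 (edgeR adjusted p = 7.09e-05 and 1.54e-05).

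Listed genes of cytosolic glycolysis lay on the other side, with 10 of 15 called lower and 2 higher in CP (median log2 fold change −1.12). The shares over all rows were 34.5% lower and 28.8% higher. Counting any record of a gene, 16 of 30 members at 1 CPM or more of the whole table in CB had a row. At 30 CPM or more, 14 of 20 had one. Members without a row included gapdh and eno2, at means of 297 and 92.3 CPM of the whole table in CB. The glycolysis median covers listed members alone and is no measure of the pathway. ldha, the lactate dehydrogenase subunit of anaerobic tissues, had 18.2, 24.8 and 24.61 CPM in CP libraries, against 136, 163 and 111 CPM in CB libraries (log2 fold change −2.59, standard error 0.225, edgeR adjusted p = 2.14e-05). The exceptions were the phosphoglycerate kinase gene pgk1, with 211, 169 and 195 CPM in CP libraries, against 47.8, 82.3 and 41.03 CPM in CB libraries (log2 fold change 1.75, standard error 0.276, edgeR adjusted p = 0.00061), and gpib. Glucose-6-phosphate isomerase is encoded by 2 paralogs that went in opposite directions: gpib had 657, 173 and 390.5 CPM in CP libraries, against 28.8, 22.8 and 26.3 CPM in CB libraries (log2 fold change 3.97, standard error 0.454, edgeR adjusted p = 9.67e-05), and gpia had 116, 106 and 127 CPM in CP libraries, against 551, 469 and 599.7 CPM in CB libraries (log2 fold change −2.21, standard error 0.191, edgeR adjusted p = 2.04e-05). Against 28.8% and 34.5% of all rows, 6 cholesterol synthesis genes were called higher and 2 lower of 12 with a row (median 1.00). These were 12 of 21 members at 1 CPM or more of the whole table in CB, and 3 of 6 at 30 CPM or more, and members without a row included ggps1, hmgcs1 and idi1, at means of 192, 63.2 and 57.8 CPM of the whole table in CB, so the median covers listed members alone and is no measure of the pathway. The sterol reductase gene tm7sf2 had 389, 208 and 240.4 CPM in CP libraries, against 19.3, 11.2 and 8.38 CPM in CB libraries (log2 fold change 4.43, standard error 0.390, edgeR adjusted p = 2.34e-05), and msmo1, which removes methyl groups from sterols, had 78.5, 71.4 and 69.5 CPM in CP libraries, against 14.4, 16.6 and 8.71 CPM in CB libraries (log2 fold change 2.46, standard error 0.260, edgeR adjusted p = 5.96e-05). The gene of the rate-limiting reductase, hmgcrb, went the other way, at 36.8, 35.8 and 45.3 CPM in CP libraries, against 65.5, 49.6 and 75.5 CPM in CB libraries (log2 fold change −0.69, standard error 0.216, edgeR adjusted p = 0.0199), a call that was lost with whole-table totals (log2 fold change −0.41, adjusted p = 0.134 by edgeR) and without CP replicate 1 or 2 or CB replicate 1 or 3 (adjusted p = 0.0539 to 0.1).

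The ring of the CCT chaperonin, which folds actin and tubulin, is built of different subunits, 7 of which were measured here. Of these, cct2, cct3, cct4, cct7 and cct8 were lower in CP, with log2 fold changes of −1.66 to −1.01. cct5 had 363, 382 and 392 CPM in CP libraries, against 10.2, 16.1 and 9.77 CPM in CB libraries (log2 fold change 4.97, standard error 0.263, edgeR adjusted p = 2.38e-06), and tcp1 was higher by 0.56 (standard error 0.195, edgeR adjusted p = 0.0314), a call that was lost when CP replicate 2 or 3 or CB replicate 1 or 3 was left out. Tubulins, its substrates, were called lower for 8 and higher for 1 of 11 genes (median −1.22), beside 34.5% and 28.8% of all rows. The α-tubulin gene tuba7l had 559.9, 172 and 304 CPM in CP libraries, against 2633, 1718 and 3238 CPM in CB libraries (log2 fold change −2.88, standard error 0.428, edgeR adjusted p = 0.000432), while the β-tubulin gene tubb4b, the 1 on the higher side, had 1742, 1686 and 1774 CPM in CP libraries, against 804, 789 and 1242 CPM in CB libraries (log2 fold change 0.88, standard error 0.205, edgeR adjusted p = 0.00509).

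Chaperones and the machinery of the endoplasmic reticulum were divided. Of 33 genes of ER chaperones and the translocon, 10 were called higher and 17 lower in CP (median −0.52), beside 28.8% and 34.5% of all rows. The translocon channel, through which new proteins enter the ER, consists of a large α subunit and the small β and γ subunits. The α subunit gene sec61a1a had 40.3, 43.5 and 46.9 CPM in CP libraries, against 109, 149 and 106 CPM in CB libraries (log2 fold change −1.48, standard error 0.200, edgeR adjusted p = 0.000238), sec61b had 485, 519 and 439 CPM in CP libraries, against 179, 140.2 and 207 CPM in CB libraries (log2 fold change 1.46, standard error 0.204, edgeR adjusted p = 0.000297), and sec61g had 557, 852 and 482 CPM in CP libraries, against 47.3, 47.4 and 47.2 CPM in CB libraries (log2 fold change 3.74, standard error 0.261, edgeR adjusted p = 7.42e-06). Another α subunit gene, sec61a1b, was not called (log2 fold change −0.22, edgeR adjusted p = 0.366), so the α subunit was not lower for both of these genes. In the TRAP complex beside it, ssr1 and ssr2 were lower (log2 fold changes −2.84 and −1.88) and ssr3 was higher (0.86). The ER chaperone gene hspa5, which encodes BiP, was lower at 305, 193 and 270.0 CPM in CP libraries, against 876, 750.3 and 1220 CPM in CB libraries (log2 fold change −1.89, standard error 0.258, edgeR adjusted p = 0.000267), and the calreticulin genes calr3a, calr3b and calr were lower with log2 fold changes of −2.74, −1.95 and −1.66. The stress-induced ER protein genes manf, creld2, sdf2l1 and derl3 were higher, with log2 fold changes of 2.11 to 2.88.

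Of 48 heat shock genes, 14 were called higher and 19 lower in CP, beside 28.8% and 34.5% of all rows. In all, 68.8% of the list was called, against 63.3% of all rows. The constitutive HSP90 gene hsp90ab1, the most counted row in CB, had 8902, 7419.6 and 8256 CPM in CP libraries, against 15871, 22859 and 19008 CPM in CB libraries (log2 fold change −1.23, standard error 0.154, edgeR adjusted p = 0.000159). Of the stress-inducible HSP70 family, hsp70l had 156, 44.5 and 87.2 CPM in CP libraries, against 8.77, 13.5 and 9.91 CPM in CB libraries (log2 fold change 3.14, standard error 0.436, edgeR adjusted p = 0.000296), and hsp70.3 had 129.5, 28.4 and 75.4 CPM in CP libraries, against 13.3, 25.1 and 19.3 CPM in CB libraries (log2 fold change 1.99, standard error 0.493, edgeR adjusted p = 0.00694). These 2 genes are close paralogs whose reads may be shared. The co-chaperone genes dnajb1b and dnajb1a had log2 fold changes of 1.74 and 1.00, both called. Immediate early genes are switched on within minutes of a stimulus. Of their 14 listed rows, 4 were called higher and 5 lower, near the shares over all rows. Among them fosab had 46.03, 24.64 and 30.3 CPM in CP libraries, against 144, 191 and 119 CPM in CB libraries (log2 fold change −2.19, standard error 0.284, edgeR adjusted p = 0.000198) and the anti-proliferative gene btg1 had 95.99, 62.5 and 67.5 CPM in CP libraries, against 710.5, 669 and 685 CPM in CB libraries (log2 fold change −3.20, standard error 0.225, edgeR adjusted p = 7.51e-06), while ccn1, a secreted matrix protein gene, had 52.8, 50.4 and 57.5 CPM in CP libraries, against 9.26, 6.60 and 8.71 CPM in CB libraries (log2 fold change 2.71, standard error 0.224, edgeR adjusted p = 1.6e-05). At this low level in CB, ccn1 could be listed mainly with a higher level in CP, and its values are a description.

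**Figure D2:**
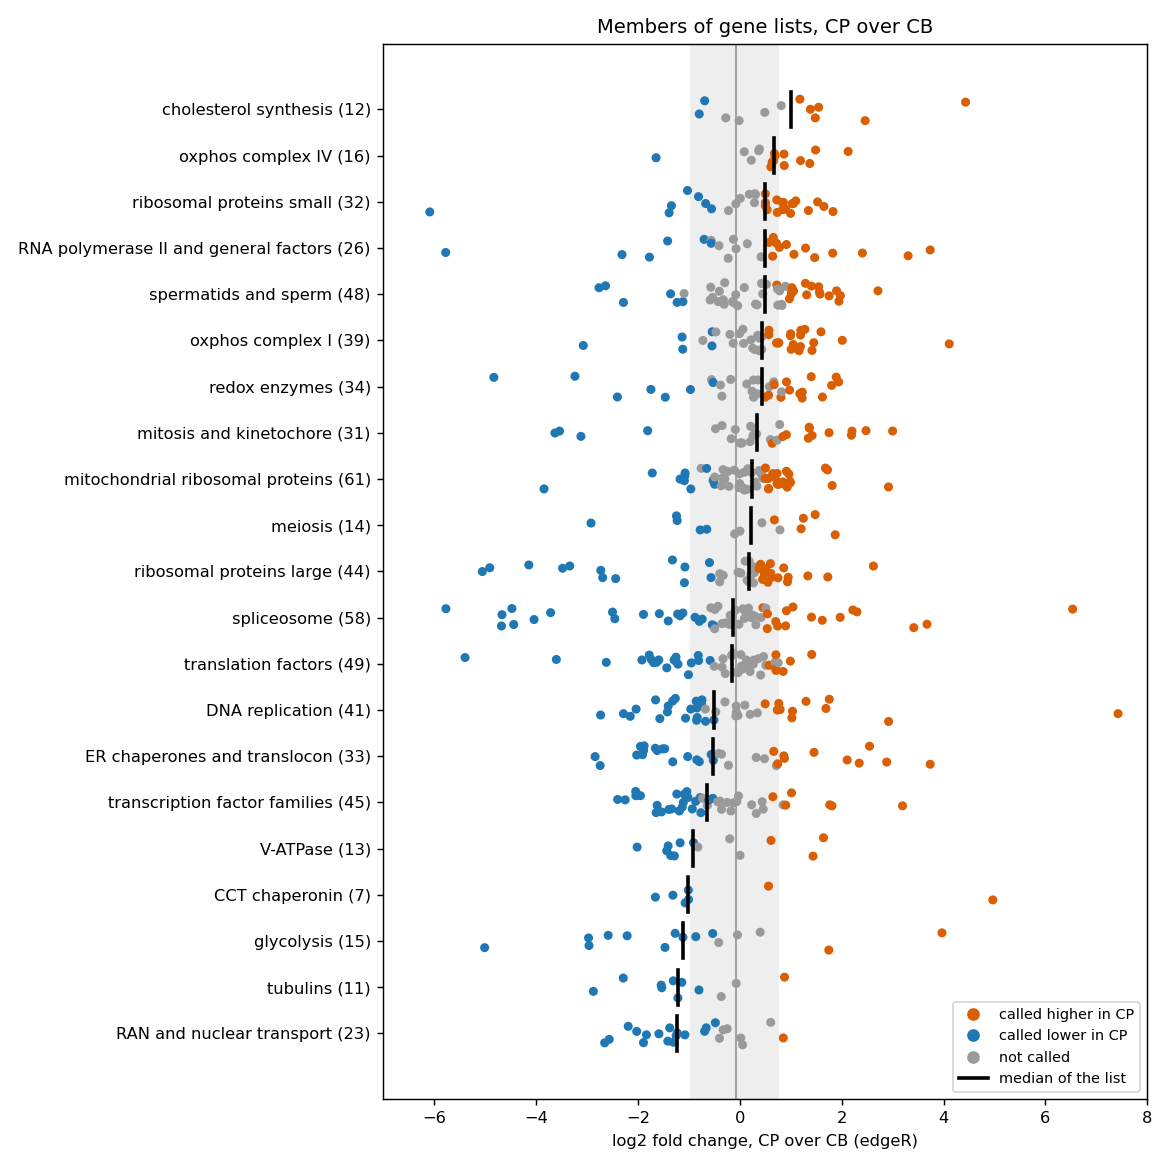
Log2 fold change (CP over CB, x axis) of each member of 21 gene lists, with the number of members in brackets; orange points were called higher and blue points lower in CP at an adjusted p under 0.05, grey points were not called, and black bars are list medians. The grey band holds the middle 50% of all 4388 rows and the grey line their median. Most lists have called members on both sides, from a median of 1.00 for cholesterol synthesis to −1.23 for nuclear transport.

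DNA replication genes were called lower for 20 and higher for 11 of 41 (median −0.51), beside 34.5% and 28.8% of all rows. Without CP replicate 3, 7 of these genes were called higher. The replicative helicase has 6 MCM subunits in equal numbers. Of these, mcm6 had 329, 416 and 409.6 CPM in CP libraries, against 1457, 1775 and 1513 CPM in CB libraries (log2 fold change −2.04, standard error 0.182, edgeR adjusted p = 2.34e-05), and mcm7, mcm2 and mcm4 had log2 fold changes of −1.57, −1.07 and −0.84, all called, while mcm3 and mcm5, with log2 fold changes of 0.20 and −0.04, were not called. Without CB replicate 2, mcm3 was called (log2 fold change 0.56, adjusted p = 0.0297 by edgeR). In replication protein A, the trimer that covers single-stranded DNA, subunits differed in direction. Its large subunit gene rpa1 had 211, 149.6 and 215 CPM in CP libraries, against 352, 364 and 407 CPM in CB libraries (log2 fold change −0.97, standard error 0.202, edgeR adjusted p = 0.00282), its middle subunit gene rpa2 had 410.4, 409 and 459.6 CPM in CP libraries, against 124, 134 and 120.2 CPM in CB libraries (log2 fold change 1.76, standard error 0.173, edgeR adjusted p = 3.9e-05), and its small subunit gene rpa3 had 538, 605 and 606 CPM in CP libraries, against 281, 284 and 297 CPM in CB libraries (log2 fold change 1.02, standard error 0.168, edgeR adjusted p = 0.000716). In the clamp loader RFC, the large subunit gene rfc1 was lower (log2 fold change −0.85, standard error 0.185, edgeR adjusted p = 0.00347), and rfc5 (log2 fold change 2.92, standard error 0.270, edgeR adjusted p = 2.97e-05) was higher. The furthest below were gmnn (−2.74), an inhibitor of origin licensing, the ligase gene lig1 (−2.29) and mcm10 (−2.15). The sliding clamp gene pcna had 497, 673 and 659.9 CPM in CP libraries, against 971, 1149 and 1163 CPM in CB libraries (log2 fold change −0.84, standard error 0.187, edgeR adjusted p = 0.00386).

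Genes of mitosis and the kinetochore were called higher for 12 and lower for 4 of 31 (median 0.33), beside 28.8% and 34.5% of all rows. With whole-table totals 19 of these genes were called higher. The spindle checkpoint gene mad2l1 had 923, 682 and 816 CPM in CP libraries, against 160.1, 94.6 and 180.4 CPM in CB libraries (log2 fold change 2.48, standard error 0.275, edgeR adjusted p = 8.28e-05), and its target in the anaphase-promoting complex, cdc20, had 51.7, 33.2 and 43.7 CPM in CP libraries, against 449, 198 and 467 CPM in CB libraries (log2 fold change −3.12, standard error 0.358, edgeR adjusted p = 9.81e-05). Securin, encoded by pttg1 and destroyed at anaphase, had 969.5, 639 and 667 CPM in CP libraries, against 198, 119 and 177 CPM in CB libraries (log2 fold change 2.20, standard error 0.265, edgeR adjusted p = 0.000131). In the chromosomal passenger complex, birc5a was higher (log2 fold change 1.42, standard error 0.203, edgeR adjusted p = 0.000334) and cdca8 lower (log2 fold change −3.54, standard error 0.236, edgeR adjusted p = 5.79e-06). Of 20 cyclins, CDKs and regulators, 6 were called higher and 5 lower. The kinase gene cdk2 had 496, 363 and 496 CPM in CP libraries, against 159, 169 and 182 CPM in CB libraries (log2 fold change 1.41, standard error 0.196, edgeR adjusted p = 0.000285), and ccne2, 1 of its E cyclins, had 18.2, 10.9 and 23.8 CPM in CP libraries, against 195, 225 and 218 CPM in CB libraries (log2 fold change −3.61, standard error 0.293, edgeR adjusted p = 1.57e-05).

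Of 58 genes of the spliceosome, 16 were called higher and 20 lower in CP, near the shares over all rows, 28.8% and 34.5%. The SD of the log2 fold change was 2.14 in this list, against 1.70 over all rows. Among SR proteins, which bind exonic enhancers, srsf11 had 16.4, 19.3 and 22.3 CPM in CP libraries, against 385, 522 and 392 CPM in CB libraries (log2 fold change −4.48, standard error 0.237, edgeR adjusted p = 2.38e-06), and srsf1b, srsf9, srsf6b, srsf2a and srsf2b were lower with log2 fold changes of −4.68 to −2.46. Of these 6, srsf1b, srsf2a and srsf2b have a second accession in the pseudo bulk-seq table, with which their log2 fold changes were −4.15, −1.95 and −1.79. srsf7b was an exception on the higher side (log2 fold change 2.30, standard error 0.244, edgeR adjusted p = 6.07e-05). Genes of core components that were higher included sf3b5 (log2 fold change 3.67), snu13b (3.41), lsm8 (2.22) and snrpd2 (1.62). Other core genes did not follow: snu13a, snrpa and snrpb were not called (log2 fold changes −0.02, 0.41 and −0.29). lsm6 was called lower (−0.74), a call that was lost with its second accession added (−0.56, adjusted p = 0.111 by edgeR). Of 26 genes of RNA polymerase II and its general factors, 13 were called higher and 6 lower (median 0.50). The subunit genes polr2j, polr2g and polr2l were higher, with log2 fold changes of 3.30, 2.41 and 1.82, and taf3, taf9 and gtf2a1 lower, with −2.32, −1.78 and −1.42. The median over the list changes sign with the scaling for the spliceosome, heat shock, immediate early, cyclin and translation factor genes, so their called members are counted here with no direction for the list.

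Of 23 genes of nuclear transport, 16 were called lower and 1 higher in CP (median −1.23), beside 34.5% and 28.8% of all rows. The GTPase gene ran, which gives transport its direction, had 214, 159 and 193 CPM in CP libraries, against 1089.6, 1137 and 1124 CPM in CB libraries (log2 fold change −2.57, standard error 0.189, edgeR adjusted p = 9.31e-06), the importin gene kpnb1 had 99.2, 102 and 130.2 CPM in CP libraries, against 331, 589 and 429.7 CPM in CB libraries (log2 fold change −2.03, standard error 0.253, edgeR adjusted p = 0.000156), and nup50 of the nuclear pore had 122, 95.2 and 132 CPM in CP libraries, against 483, 463 and 648 CPM in CB libraries (log2 fold change −2.19, standard error 0.223, edgeR adjusted p = 4.77e-05). The 1 called on the higher side was nutf2l, related to the carrier of Ran-GDP (log2 fold change 0.85, standard error 0.170, edgeR adjusted p = 0.00214), while its relative nutf2 was lower (log2 fold change −1.89, standard error 0.196, edgeR adjusted p = 5.23e-05). Translation factors were called lower for 19 and higher for 7 of 49 (4 higher without CP replicate 2 and 11 without CB replicate 2), with eif3s10, the large subunit of the eIF3 complex, at 18.2, 19.5 and 21.9 CPM in CP libraries, against 759, 1012 and 748 CPM in CB libraries (log2 fold change −5.40, standard error 0.237, edgeR adjusted p = 1.24e-06). The V-ATPase, which acidifies vesicles, was called lower for 7 and higher for 3 of 13 (median −0.91), beside the same shares of all rows. Of 45 listed genes of transcription factor families, 23 were called lower and 6 higher (median −0.64), and among redox enzymes, with 14 of 34 higher and 7 lower (median 0.43), the glutathione peroxidase gene gpx4b, needed for sperm in mice, had 24.3, 12.3 and 18.7 CPM in CP libraries, against 528, 388 and 626 CPM in CB libraries (log2 fold change −4.83, standard error 0.326, edgeR adjusted p = 6.67e-06).

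Of 14 meiosis genes, 5 were called higher and 5 lower in CP, beside 28.8% and 34.5% of all rows. The recombinase gene dmc1, which acts on meiotic breaks, had 777, 559.6 and 826 CPM in CP libraries, against 227, 121 and 244 CPM in CB libraries (log2 fold change 1.87, standard error 0.297, edgeR adjusted p = 0.000622), and spo11, whose product makes these breaks, had 176, 123 and 151 CPM in CP libraries, against 58.9, 49.98 and 80.4 CPM in CB libraries (log2 fold change 1.25, standard error 0.233, edgeR adjusted p = 0.00151). In the synaptonemal complex, which joins homologous chromosomes, sycp1 was called lower, although the groups overlapped (log2 fold change −0.65, standard error 0.231, edgeR adjusted p = 0.0344), and syce2 higher (log2 fold change 0.68, standard error 0.223, edgeR adjusted p = 0.0249). The call of sycp1 was lost without CP replicate 2 or 3 or CB replicate 1 or 3 and with whole-table totals (adjusted p = 0.0934 to 0.171 by edgeR) as well as with DESeq2 (adjusted p = 0.0575), and that of syce2 without CP replicate 1 or 3 (adjusted p = 0.0787 and 0.0647). hormad1, a protein of chromosome axes, was lower at 65.3, 45.3 and 62.03 CPM in CP libraries, against 462, 324 and 521 CPM in CB libraries (log2 fold change −2.92, standard error 0.255, edgeR adjusted p = 2.18e-05).

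Of 48 genes of spermatids and sperm, many of them of the flagellum, 16 were called higher and 6 lower in CP (median 0.48), beside 28.8% and 34.5% of all rows. Without CP replicate 1, 11 were higher and 8 lower, with a median of 0.13, and the spread of the median between replicates, an SD of 0.78, was larger than the median. These values cover listed members alone. Counting any record of a gene, 52 of 87 members at 1 CPM or more of the whole table in CB had a row. At 30 CPM or more, 52 of 76 had one. Members without a row included ccdc40 and mns1, at means of 620 and 472 CPM of the whole table in CB, and tekt1. The dynein light chain gene dnal1 had 625, 389 and 469 CPM in CP libraries, against 92.5, 50.6 and 83.6 CPM in CB libraries (log2 fold change 2.71, standard error 0.292, edgeR adjusted p = 6.85e-05), the intraflagellar transport gene ift22 had 208, 226 and 161 CPM in CP libraries, against 69.4, 32.5 and 52.9 CPM in CB libraries (log2 fold change 1.95, standard error 0.289, edgeR adjusted p = 0.000429), and drc8 of the dynein regulatory complex had 1320.3, 696 and 880.2 CPM in CP libraries, against 336, 102 and 299 CPM in CB libraries (log2 fold change 1.97, standard error 0.435, edgeR adjusted p = 0.00379). Another part of that complex, drc1, lay below CB at 342, 119 and 249.5 CPM in CP libraries, against 1596, 1368 and 1449 CPM in CB libraries (log2 fold change −2.64, standard error 0.352, edgeR adjusted p = 0.000229), as did cfap45 inside the microtubules of the axoneme (log2 fold change −2.29, standard error 0.239, edgeR adjusted p = 5.6e-05). cfap20 was lower by accession (log2 fold change −2.77, standard error 0.354, edgeR adjusted p = 0.000185) and not called with its second accession added (log2 fold change 0.28, adjusted p = 0.457 by edgeR). Among piRNA pathway genes of spermatogonia and spermatocytes, tdrd7a had 174, 139 and 129 CPM in CP libraries, against 1657, 1024 and 2001 CPM in CB libraries (log2 fold change −3.41, standard error 0.283, edgeR adjusted p = 1.78e-05), and the Piwi gene piwil1 was not called at 1039, 1314 and 1323 CPM in CP libraries, against 927, 1193 and 926 CPM in CB libraries. With whole-table totals it was called higher (log2 fold change 0.56, adjusted p = 0.027 by edgeR).

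Somatic cells of the testis had few rows in the comparison. Over all genes with a mean of at least 1 CPM of the whole table in CB, 39.1% (4710 of 12052) had a row in the pseudo bulk-seq table, by accession or by gene symbol. This share was 6.03% for genes at 1 to 3 CPM in CD and 93.3% for genes at 1000 CPM or more in CD. At 1 CPM or more in CB, 0 of 9 Leydig cell genes, 1 of 22 genes of smooth muscle and fibroblasts, 1 of 15 endothelial genes, 2 of 29 genes of adipocytes and liver, 5 of 19 Sertoli cell genes and 11 of 47 leukocyte genes had a row. Low shares were not limited to somatic lists: 5 of 20 spermatogonia genes and 54 of 286 genes of transcription factor families had a row. Of genes at 30 CPM or more in CB, 64.1% of all genes were listed (3119 of 4863), against 0 of 3 Leydig cell genes, 1 of 10 genes of smooth muscle and fibroblasts, 2 of 7 Sertoli cell genes, 2 of 10 genes of adipocytes and liver, 2 of 5 leukocyte genes and 4 of 13 spermatogonia genes, while no endothelial gene reached this level. As shares of the whole table in CB, the androgen synthesis gene cyp17a1 was at 31.0, 20.6 and 41.2 CPM, the Leydig cell hormone gene insl3 at 131, 47.1 and 172.2 CPM, the Sertoli cell gene gsdf at 21.8, 33.2 and 41.2 CPM and the collagen gene col1a1b at 279.6, 244.4 and 296.8 CPM, and none of these was listed in the pseudo bulk-seq table. The related collagen gene col1a1a was listed, with 12.1, 14.99 and 14.4 CPM in CP libraries, against 304, 371 and 256 CPM in CB libraries (log2 fold change −4.47, standard error 0.232, edgeR adjusted p = 2.38e-06). Listing does not say that a gene had no counts in CP: 974 accessions of the pseudo bulk-seq table have no gene symbol in the annotation used, and a row is listed only with at least 30 counts in each CP and TP library, which is 8.59, 3.20 and 4.89 CPM of the whole table in the 3 CP libraries.

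Skeletal muscle genes summed to 9368, 11490 and 8197 CPM of the whole table in the 3 CB libraries, led by the parvalbumin gene pvalb1 at 3065, 3795 and 2730 CPM, and 0 of 26 such genes had a row in the pseudo bulk-seq table. In bulk-seq these genes were not particular to CB, since they summed to 5345 to 5906 CPM in CD and to 5982 to 9230 CPM in intact testes (CI). The muscle actin gene actc1b, which is not in this list, had 17.5, 59.9 and 46.5 CPM in CP libraries, against 2344, 2917 and 2146 CPM in CB libraries (log2 fold change −5.88, standard error 0.443, edgeR adjusted p = 1.12e-05). Absence of rows was not limited to somatic genes. The germ cell genes ddx4, at 846.9, 1468 and 1022 CPM of the whole table in CB, and dazl, at 835.9, 1107 and 814.5 CPM, had no listed row, nor had the ribosomal protein genes rpl15, rplp2, rpl8 and rps24, which averaged 1641 to 2711 CPM in CB. These ribosomal protein genes and dazl were named after their values were seen.

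**Figure D3:**
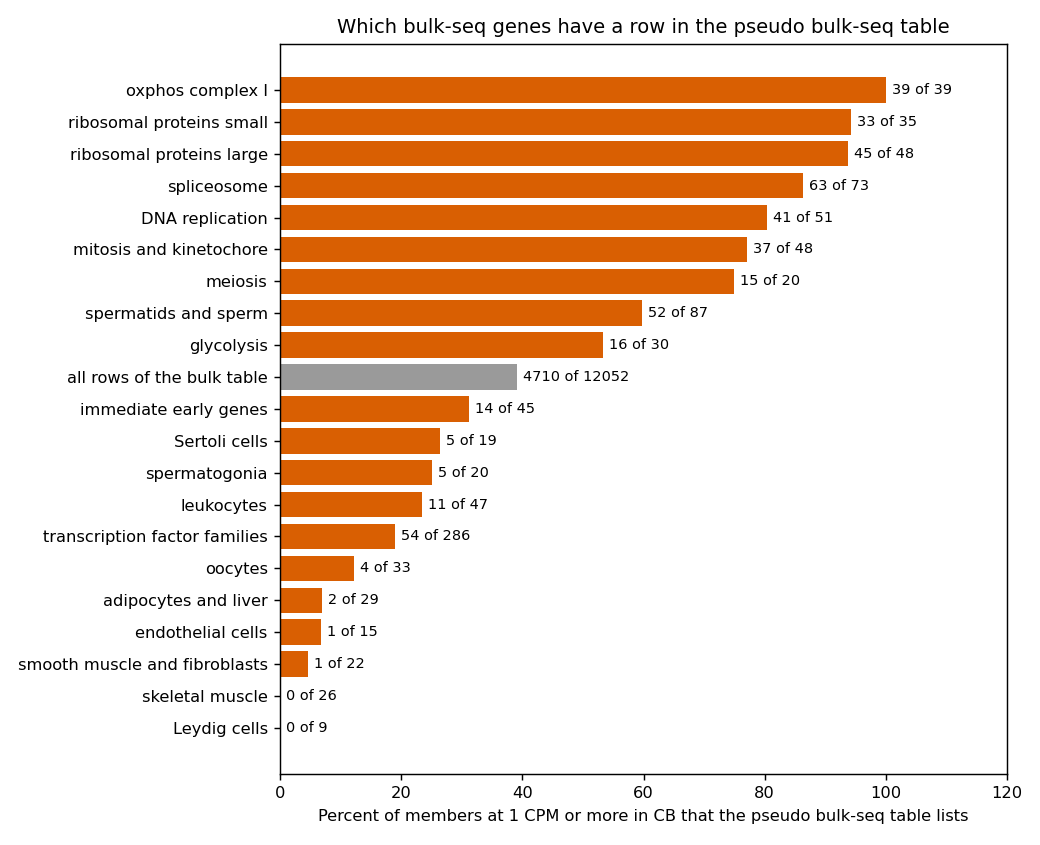
Share of the genes of a list, among those with a mean of at least 1 CPM of the whole table in CB, that have a row in the pseudo bulk-seq table by accession or gene symbol (x axis, percent), with the counts beside each bar. Lists of respiratory chain, ribosome and splicing genes lie above the share over all bulk-seq rows (grey, 39.1%), and lists of somatic cell types and muscle, and of spermatogonia and transcription factors, below it, with 0 of 26 for skeletal muscle and 0 of 9 for Leydig cells.

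A few somatic and immune genes had rows, and for those of low level in CB the direction was fixed by the need for 30 counts in each CP and TP library, so their values are a description. The inflammatory cytokine gene il1b had 25.7, 34.7 and 33.1 CPM in CP libraries, against 1.64, 4.37 and 1.80 CPM in CB libraries (log2 fold change 3.54, standard error 0.401, edgeR adjusted p = 9.28e-05), the Sertoli cell gene sox8b had 172, 108 and 143 CPM in CP libraries, against 20.6, 10.6 and 15.1 CPM in CB libraries (log2 fold change 3.19, standard error 0.298, edgeR adjusted p = 3.17e-05), and rag2, a subunit of the recombinase of lymphocytes, had 381, 214 and 215 CPM in CP libraries, against 117, 58.8 and 96.02 CPM in CB libraries (log2 fold change 1.57, standard error 0.322, edgeR adjusted p = 0.00255). For il1b the log2 fold change was 4.26 without CB replicate 2. The MHC class II chaperone gene cd74a was lower, at 51.03, 36.03 and 23.6 CPM in CP libraries, against 76.2, 69.5 and 60.05 CPM in CB libraries (log2 fold change −0.91, standard error 0.274, edgeR adjusted p = 0.0175), a call that was lost with whole-table totals (adjusted p = 0.069 by edgeR) and without CP replicate 3 or CB replicate 1 (adjusted p = 0.0593 and 0.062). Of 5 Sertoli cell rows, sox8b was the only 1 called. The log2 fold changes of these rows ran from −0.67 to 3.19, and 3 of the 5 were positive. Leukocyte genes were called higher for 3 and lower for 1 of 10 rows, beside 28.8% and 34.5% of all rows. The defining leukocyte marker coro1a was not called, at 18.6, 18.4 and 27.8 CPM in CP libraries, against 25.2, 38.97 and 27.6 CPM in CB libraries. In CP, rag2 lay far above coro1a, and which cells the rag2 counts came from was not tested.

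Direction differed between classes of the level in CD, which has no part in the fit but tracks the level in CB. Of 419 genes under 10 CPM in CD, 322 were called higher and 1 lower in CP, with a median log2 fold change of 1.85. The median fell to 0.32 at 10 to 30 CPM, −0.27 at 30 to 100 CPM, −0.65 at 100 to 300 CPM and −0.90 at 300 to 1000 CPM, and it was −0.17 for the 118 genes at 1000 CPM or more. Since a row needs 30 counts in each CP and TP library to be listed, genes of low level that had fewer counts there are not in this comparison. Rows under 10 CPM could therefore enter mainly with a higher level in CP. Their calls and their median were largely set by this need and are a description. Direction also moved with the records that a gene has. For 93 rows whose gene has 2 or 3 accessions in the pseudo bulk-seq table, the median log2 fold change was −2.01, with 77 called lower and 5 higher. When the counts were added over the accessions of each gene, the median of these genes was −1.04, with 58 called lower and 12 higher. The 4295 rows with 1 accession had a median of −0.04. Over all genes joined in this way, 1416 of 4749 were called higher and 1671 lower in CP. Of 2527 rows whose gene has 1 transcript in RefSeq, 32.8% were called higher and 28.3% lower (median 0.09). With 2, 3, 4 and 5 or more transcripts, 22.4, 24.5, 27.5 and 20.2% were called higher. In the same classes 43.0, 41.4, 47.6 and 43.3% were called lower, with medians of −0.35, −0.31, −0.57 and −0.35. The cause was not tested.

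**Figure D4:**
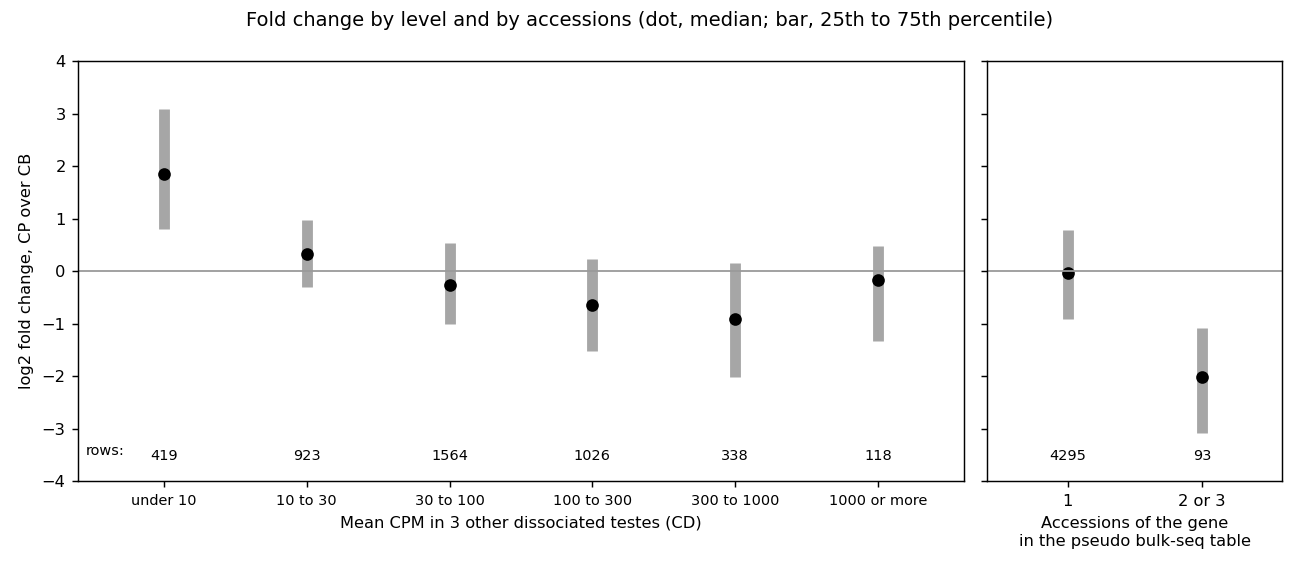
Median log2 fold change (CP over CB, points) with the 25th to 75th percentile (bars) in classes of the mean level in 3 dissociated testes of other control fish (left, CPM of the whole table in CD) and by the number of accessions of the gene in the pseudo bulk-seq table (right); numbers of rows stand below. The median runs from 1.85 under 10 CPM to −0.90 at 300 to 1000 CPM, and is −2.01 for genes with 2 or 3 accessions.

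Of 219 pairs of genes whose symbols differ only in a final a or b, 95 had both members called. Of these 95, 38 went in opposite directions, 19 were both higher and 38 both lower in CP. Over all rows 28.8% were called higher and 34.5% lower, and whether these pairs differ from pairs of unrelated rows was not tested. Pairs were matched by symbol alone, so subunits of 1 complex, such as sdha and sdhb, are among them. Pairs in opposite directions included gpia and gpib above, and stmn1a (log2 fold change −4.38) against stmn1b (0.62), which encode the tubulin-binding protein stathmin. Another was seta (1.11) against setb (−3.17), which encode a histone chaperone. Counted over its records in the pseudo bulk-seq table, setb was at −2.86. The pairs named here were chosen after their values were seen, and shared reads between paralogs may enter them.

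In TCDD-exposed suspensions the same comparison of methods, TP against TB, could be made in libraries that the control comparison does not share. Over the 4388 rows its log2 fold changes correlated with those of CP against CB (Pearson r = 0.843 across genes, which are not independent replicates), and 78.8% of rows had the same sign. Of 1849 rows called with at least a 2-fold difference in CP against CB in the fit of all 10 libraries, 1737 (93.9%) had the same sign in TP against TB. The minimum count that a row needs to be listed holds for TP libraries as well as for CP libraries. Rows of low level in both CB and TB could therefore enter mainly with a higher level in CP and in TP. Part of the shared signs and of r was set by this need, and how large a part was not tested. The interaction, which tests whether the 2 differences are unequal, was called for 307 rows (7.0%) by edgeR, 37 (0.843%) with a larger and 270 (6.15%) with a smaller log2 ratio in the exposed suspensions. These counts rested on single libraries: 1 row was called without TP replicate 2, 81 without TP replicate 1, 148 without CP replicate 1, 180 without CP replicate 3, and 1542 without TB replicate 1, of which 893 were larger and 649 smaller. DESeq2 called 633 rows, 157 larger and 476 smaller. None of the 69 respiratory chain genes or 76 ribosomal protein genes was among the 307. Of these, 5 respiratory chain and 18 ribosomal protein genes had an unadjusted p under 0.05 by edgeR, beside 1188 of all rows, and DESeq2 called 1 and 3 of them at an adjusted p under 0.05. The difference was positive for 65 of 76 ribosomal protein genes (85.5%), with a median of 0.36, beside 57.6% and a median of 0.16 over all rows. Counts of these 76 genes were 35.05 and 37.04% of the shared rows in TP, against 22.9 and 24.6% in TB, and both TP values lay above those of the 3 CP libraries.

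Spermatid and sperm genes made up a part of the 307. For 35 of 48 of them the ratio of pseudo bulk-seq to bulk-seq was lower in TCDD-exposed than in control suspensions, beside 6.15% of all rows, and for none was it higher. Their median log2 fold change was −2.24 for TP against TB and 0.53 for CP against CB in the same fit. Counts of the 48 genes were 0.412 and 0.320% of the shared rows in TP, against 1.75 and 1.86% in TB, and 3.24, 1.68 and 2.12% in CP, against 2.22, 1.32 and 2.18% in CB. The TP libraries lay below all 8 others, and the CP and CB libraries overlapped. The number of genes called depended on single libraries: of these 48, 1 was called without TP replicate 2, 18 without TP replicate 1, 21 without CP replicate 1 and 24 without CP replicate 3, and 29 to 38 without any of the other libraries. The median of the difference was −3.01 to −2.31 when any of the 10 libraries was left out, against −2.62 with all.

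**Figure D5:**
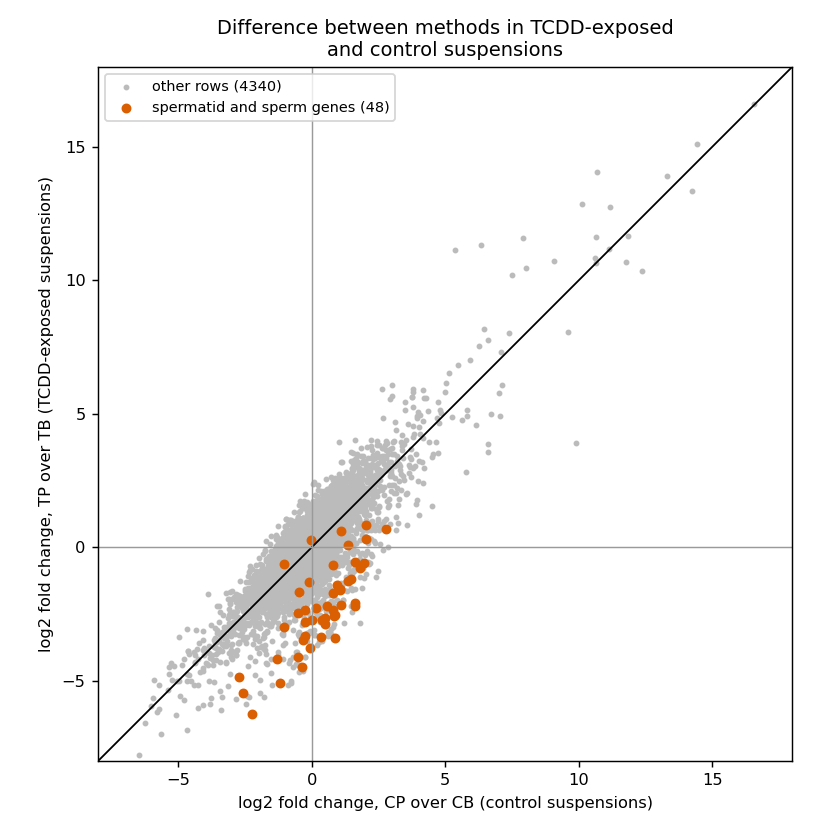
Log2 fold change of TP over TB (y axis) against that of CP over CB (x axis) for 4388 rows, both from 1 edgeR fit of 10 libraries; orange points are the 48 spermatid and sperm genes and the diagonal marks equal values. Most rows lie along the diagonal (r = 0.843), while 46 of the 48 orange points lie below it, with medians of 0.53 on the x axis and −2.24 on the y axis.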

How the data were processed

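Pseudo bulk-seq counts were deposited by the authors as counts of cells summed over a library, after Cell Ranger (6.01 in the submitters' notes) and Seurat 4.0.4. Bulk-seq counts were deposited as reads per transcript accession, from 3′ single-end reads on GRCz11, and the counter is not given in the sources used here. Both tables also hold columns of the authors' own comparisons (fold changes and p-values), which were not used. Left unused were 10 columns of sample values in the 2 tables deposited for CP against CB and TP against TB. Their 5 pseudo bulk-seq columns repeat those used. Of their 5 bulk-seq columns, those named for CB hold counts of intact testes and not of the suspensions, and those named for TB differ from the TB columns of the bulk-seq table, so CB and TB were taken from that table. The count rows of the bulk-seq table run against its accessions and were reversed: the mean CB level then correlated with CD at r = 0.964 over 8308 rows, against −0.895 as deposited. As a check of row identity that does not rest on the level, TB minus CB correlated with CD minus CI at r = −0.505 after reversal, and at −0.0091 to 0.0230 when the reversed rows were shifted by 1 or 2. The columns of CB and TB were assigned to their groups only.

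The 4388 shared accessions were fitted with edgeR 4.0.16 (R 4.3.3), with TMM scaling, filterByExpr, which kept every row, and a robust quasi-likelihood test with Benjamini-Hochberg adjustment over all rows. Calls were made at an adjusted p under 0.05. The difference between TP against TB and CP against CB was given by the interaction term of a fit to 10 libraries. DESeq2 1.42.0 was an alternative. On simulated data for this comparison of 4388 rows, the fit called 77.5% of 200 rows changed by 2-fold or 4-fold, and 7 unchanged rows. Gene symbols came from RefSeq (GRCz12tu), and 4364 shared accessions (99.5%) matched. Members and gene lists were chosen with earlier results of these data known, and lists were trimmed again after the values were seen. The genes named are the 10 largest called differences in each direction with at least 10 CPM in the higher group and 3 counts in each library, the 5 rows with most CP counts among those with no CB count, the 5 highest rows of each group, up to 4 called members of each list in each direction, and subunits that show where a complex divides. Other genes (h2ax, calr, manf, dnajb1a, dnajb1b, hsp70.3, lsm6, lsm8, snrpa, snrpb, snrpd2, snu13a, nutf2, pcna, piwil1, coro1a, sec61a1b, uqcrc2b, the SR protein genes other than srsf11, and the paralog pairs) were chosen after their values were seen. Some genes that this rule names are not reported here.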

Additional observations from a re-analysis of the deposited data

Results flagged for a closer look

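The difference between pseudo bulk-seq and bulk-seq was unequal in TCDD-exposed and control suspensions for 307 of 4388 rows, by the interaction test of edgeR, and 35 of 48 spermatid and sperm genes were among them with a negative difference. Differences below are the log2 ratio of TP over TB minus that of CP over CB, each called at an adjusted p under 0.05. Among genes described above, they were positive for h2az2b (3.4), rrm2l (2.69), mcm4 (1.37), nutf2l (1.36) and mcm2 (1.1). They were negative for the flagellar genes cfap45 (−4), drc1 (−2.85), cfap20 (−2.15) and dnal1 (−2.09), and for the synaptonemal genes sycp1 (−3.78) and syce2 (−1.73). Other negative differences were those of rag2 (−3.21), tm7sf2 (−2.93), gpib (−2.81), dnajb1b (−2.4), btg1 (−2.07), zgc:158463 (−1.54) and zgc:103482 (−1.29). Without TP replicate 2, 1 row of the 4388 was called in this test. The cause of these differences was not tested.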

How the results depend on the processing

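The number of rows called between CP and CB, 2777, was within 1.5 times under every alternative run except that with 1539 of 2527 genes of a single accession, chosen after seeing the data, where fewer rows were tested. It was 2355 without CP replicate 3 and 2758 without CB replicate 2, the ends of the range over left-out libraries. The number of rows in the interaction, 307, was 633 with DESeq2, and 1 to 1542 when a library was left out: 1 without TP replicate 2, 81 without TP replicate 1, 148 without CP replicate 1, 180 without CP replicate 3 and 1542 without TB replicate 1. Over 158 genes, 2420 of 2457 alternative values kept direction and call, 23 lost the call, 6 gained one and 8 changed sign. Counts added over accessions of a gene gave 0.28 for cfap20. The value of mcm5, which was not called, was 0.063 with DESeq2 size factors, 0.25 with whole-table totals, 0.013 with ribosomal proteins left out of scaling, 0.064 with DESeq2 and 0.011 with the strict filter, and −0.12 to 0.19 when a library was left out. The causes were not tested. Of 672 alternative list medians, 88 moved by more than the spread between replicates, 29 of them with whole-table totals. No paired analysis was possible because the names of the CB and TB columns give their group but not the single sample, so that no replicate number pairs them, and the planned replicate block is not given. Planned bins of protein length were not run.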
